A study of Mus musculus with 60 samples.

Results

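Lhx2, Six3, Six6, Pax6, Emx2, Otx2 and Rax are transcription factor genes of the forebrain and eye, and Cryba1 and Cryaa code for crystallins of the lens. The rule names these 9 genes by symbol and not by a cut on measured values, but they were chosen with earlier results of these data known. The arrays represent 18193 genes in all. They were followed through the embryonic mouse jaw to see which dissected pieces carry RNA of genes known from brain and eye. Each gene is given by the log2 signal of a single probe set, so a difference of 1 is a doubling, and levels of different genes are not compared.

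In the early head, Otx2 helps to set aside forebrain and midbrain, Emx2 and Lhx2 pattern the cerebral cortex, and Six3, Six6, Rax, Pax6 and Lhx2 act together in the field that gives rise to the eyes. The lens forms from surface ectoderm next to the optic cup and fills its cells with crystallins. None of the transcription factors is restricted to brain and eye: Six6 and Six3 are also known from the pituitary primordium, Otx2 from pigment epithelium and choroid plexus, Pax6 from nasal and lens ectoderm, and Lhx2 and Emx2 from other organs of the embryo.

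The study profiled the mandible and the maxilla of C57Bl/6 embryos within the FaceBase consortium, with the stated aim of joining expression profiles to the shaping of both jaws. Samples came from the distal end and the proximal end of either jaw at 5 embryonic ages a day apart, E10.5 to E14.5. This makes 20 groups of 3 arrays, 60 arrays in all, each from 3 micrograms of total RNA. No genotype or treatment is given, and all groups share the strain. The tissue label reads "Distal bone" or "Proximal bone" at every age.

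The array titles name 4 batches: mandible E13.5 and E14.5 in batch 1, mandible E12.5 and maxilla E12.5 to E14.5 in batch 2, both jaws at E11.5 with mandible E10.5 in batch 3, and maxilla E10.5 in batch 4. Every tested difference of 2 groups below lies within a batch, and levels set side by side across batches are descriptions in which group and batch cannot be told apart. Array medians lay between 6.06 and 6.31, the highest in the distal mandible at E11.5, replicate 3. Prrx1, a gene of limb and jaw mesenchyme, averaged 12.31 to 13.21 in the 20 groups. Not all genes of jaw mesenchyme were as even: Alx1 averaged 5.56 to 11.63. The mean of a list of such genes ran from 9.09 in the proximal mandible at E14.5 to 10.42 in the distal maxilla at E10.5. Of the bone genes, Sp7, Alpl and Col1a1 were above the presence floor in all 20 groups, Ibsp and Phex in 11 each, and Dmp1, which marks osteocytes, in 8, all at E13.5 or E14.5. The floor is 4.78, the highest 25th percentile of any array. No background was measured, and a gene whose mean in a group is at or under the floor cannot be said to be expressed in it. A fold against such a group is written as at least, counted from the floor. It is not stated in the labels if a group's 3 arrays stem from different embryos, so p-values measure a spread between arrays that may be technical. That spread is a single estimate per gene, pooled over all 20 groups, so uneven arrays in any group enter every test of the gene. A replicate number left out without a piece being named was left out of all 20 groups. In such bulk tissue, fewer cells of a type and less RNA per cell cannot be told apart.

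Of the 9 genes, Lhx2, Six3, Emx2, Otx2, Six6 and Cryba1 moved over more than 1 log2 unit between group means, while Pax6 by its brightest probe set, Cryaa and Rax spanned 0.35, 0.94 and 0.84. Emx2, Six3, Pax6, Cryaa and Rax were above the floor in all 20 groups, Lhx2 in 18, Otx2 in 13, Six6 in 5 and Cryba1 in 4. Six6 and Cryba1 were above the floor in no mandible group. The plot of E10.5 and E11.5 arrays shows these levels array by array, and the differences between pieces in the plot of position differences were tested with limma, with p-values adjusted over all 18193 genes.

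**Figure D1:**
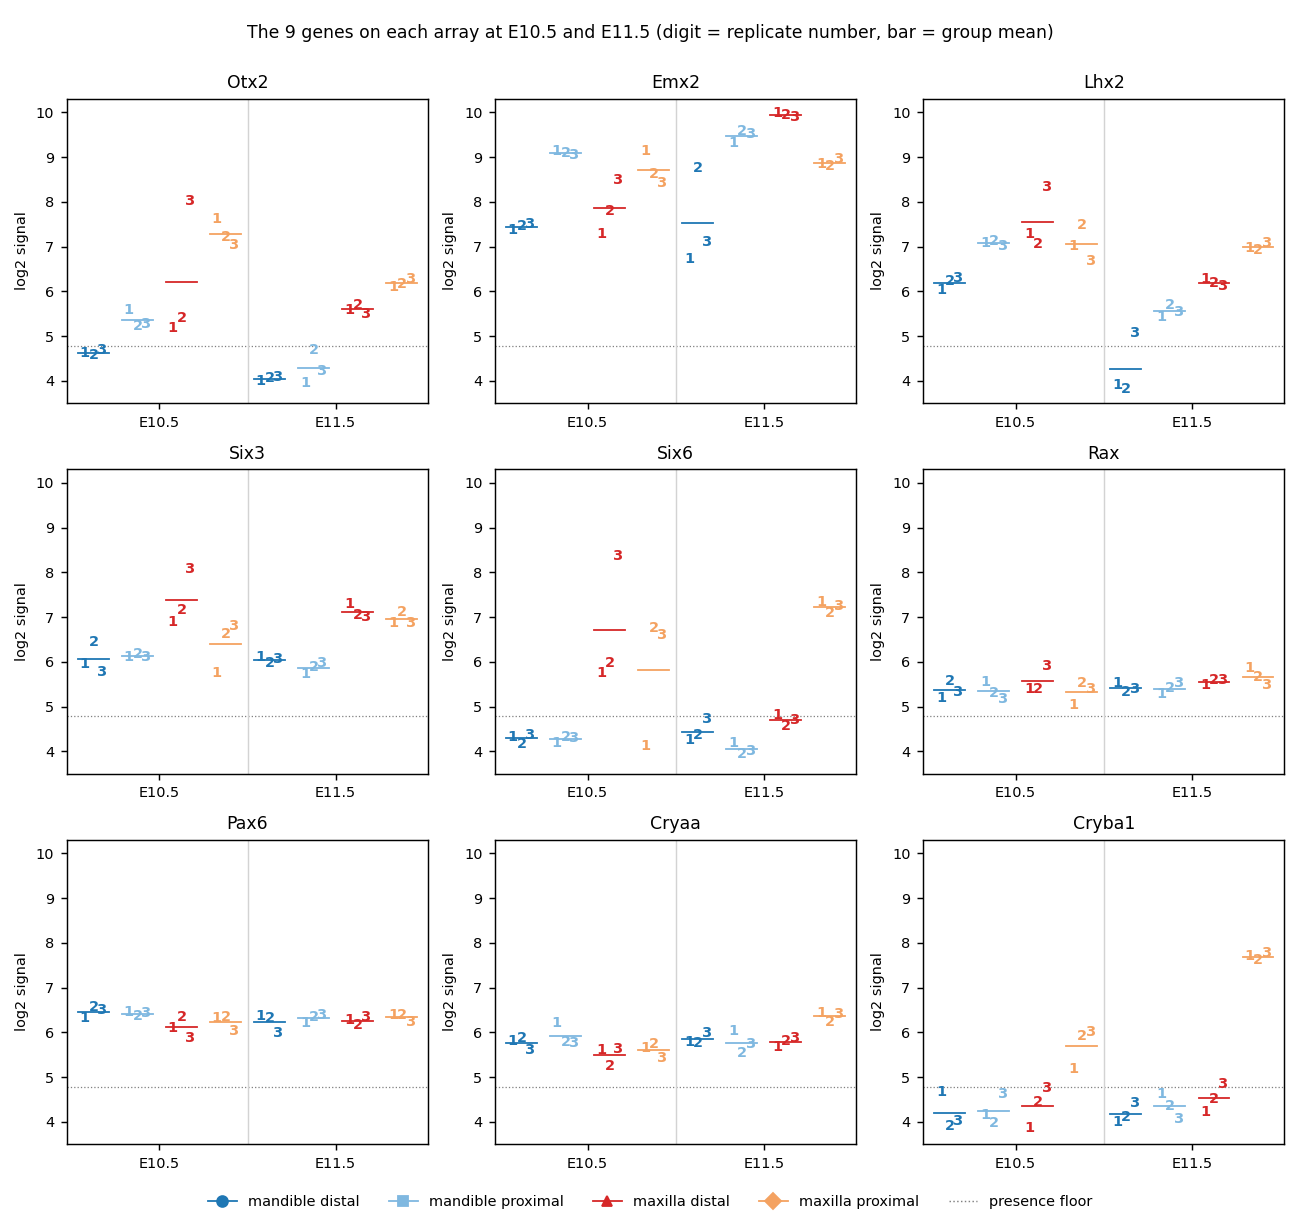
Log2 signal of each of the 9 genes (vertical axis) in every array at E10.5 and E11.5, by jaw and piece (horizontal axis), with a panel per gene, the digit giving the replicate number and a line at the presence floor. At E10.5 the distal maxilla array of replicate 3 stands above the other 2 of its group for Six6 (8.38) and Otx2 (8.02), while at E11.5 Cryba1 is high in the proximal maxilla (7.61 to 7.77).

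Distal and proximal pieces of the mandible differed in Lhx2 and Emx2 at E10.5, both lower distally, so 2 of the 9 genes were called where 19.1% of all genes were. At E11.5 the same count was 2, both lower distally, against 8.93% of all genes. At E12.5 it was 2, both lower distally, against 32.7%. At E13.5 it was 2, with 1 in each direction, against 25.3%, and at E14.5 it was 3, with 2 higher and 1 lower distally, against 26.8%. In the maxilla 3 genes were called at E10.5, with 1 higher and 2 lower distally, against 20.2% of all genes. At E11.5 it was 5, with 1 higher and 4 lower, against 34.7%. The later counts were 3 at E12.5, with 2 higher and 1 lower, against 39%, then 2 at E13.5, 1 in each direction, against 15.7%, and 3 at E14.5, all higher distally, against 33.7%. Over E12.5, E13.5 and E14.5 together, 7 gene and age pairs were called in the mandible, beside 28.3% of all pairs, and 8 in the maxilla, beside 29.5%. These shares are close to the background in several comparisons, and the pattern lies in which gene, which piece and how large the difference was.

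**Figure D2:**
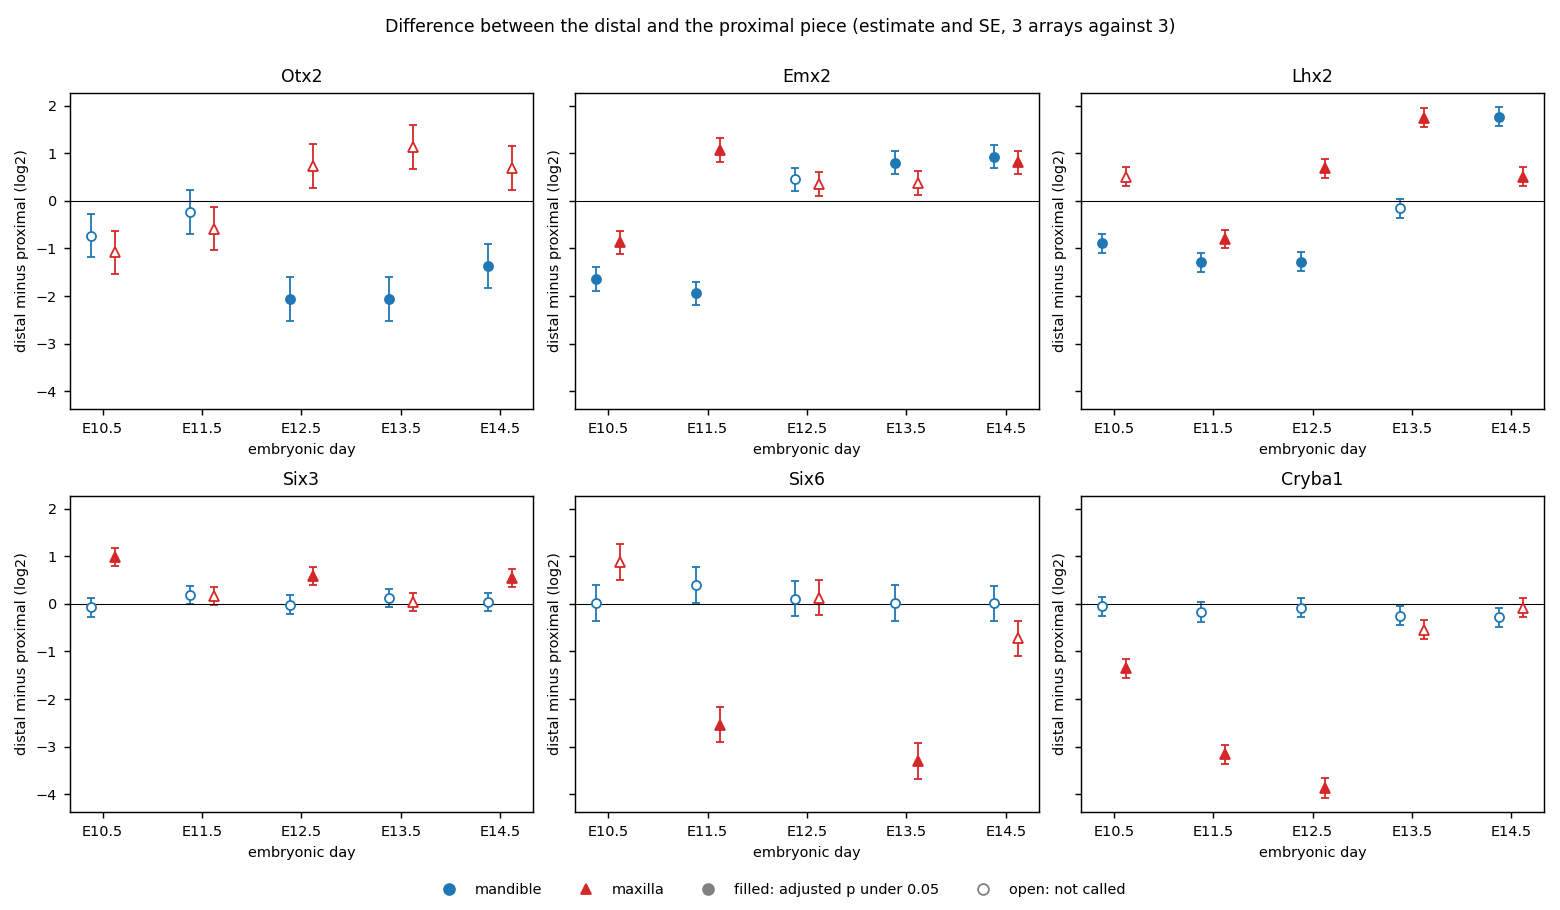
Distal minus proximal difference in log2 signal with its standard error (vertical axis) for Otx2, Emx2, Lhx2, Six3, Six6 and Cryba1 at each age (horizontal axis), in both jaws. Filled points passed an adjusted p of 0.05, and Cryba1 in the maxilla reaches -3.87 at E12.5 while Emx2 at E11.5 lies at -1.94 in the lower jaw and 1.07 in the upper.

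Emx2, a homeobox gene of the cortex and of several non-neural organs, was well above the floor in every piece. In the mandible at E10.5 its 3 distal arrays read 7.38, 7.46 and 7.50 and its proximal arrays 9.13, 9.10 and 9.05. The groups did not overlap, and the distal level was lower by 3.13-fold (difference -1.64, SE 0.25, adjusted p = 9.58e-07). At E11.5 the distal arrays read 6.72, 8.77 and 7.11 and the proximal ones 9.31, 9.59 and 9.53. The distal arrays were widely spread there, yet all lay below every proximal array (difference -1.94, adjusted p = 3.98e-08), and the mandible calls at E10.5 and E11.5 held without any single array. From E12.5 the order in the mandible was no longer this one: the difference was 0.46 at E12.5, not called, and Emx2 was higher distally at E13.5 (0.81, adjusted p = 0.0104) and at E14.5 (0.93, adjusted p = 0.00293). The E13.5 call was lost without distal replicate 2 (0.67, adjusted p = 0.0810) or proximal replicate 1 (0.72, adjusted p = 0.0567). The highest mandible arrays were the distal ones at E13.5, at 9.91, 10.28 and 9.83.

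In the maxilla Emx2 ran the other way at E11.5. Its distal arrays read 9.99, 9.95 and 9.90 and its proximal arrays 8.85, 8.80 and 8.96, a tight pair of groups with the distal level 2.10-fold higher (1.07, adjusted p = 0.000381). Taken with its sign, the position difference was higher in the maxilla than in the mandible by 3.02 (SE 0.35, adjusted p = 1.15e-09 in limma), the jaws having opposite signs. For that difference of differences 24.3% of all genes were called, and 4 of the 9 genes were. At E14.5 the distal maxilla was again higher (0.81, adjusted p = 0.00753), with arrays at 8.34, 8.56 and 8.23 against 7.28, 7.61 and 7.81, although the call was lost without proximal replicate 1 (0.67, adjusted p = 0.057). The distal pieces of the jaws themselves differed at E11.5, where the mandible was 5.33-fold below the maxilla (-2.41, adjusted p = 4.64e-11). The transcripts closest to Emx2 over the 20 group means were E330013P04Rik (Pearson r = 0.96), Emx2os, transcribed antisense to Emx2 (r = 0.85), and Gm16499 (r = 0.74), out of 6146 candidate genes. Emx2os was highest in the distal maxilla at E11.5 (7.29), the group with the second-highest Emx2. Whether the counting of probe sets separates overlapping transcripts of that locus was not tested.

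Lhx2, a LIM-homeobox gene needed for the eye and the cortex, was present in both jaws, and in the distal mandible it fell from E10.5 to E11.5 and rose from E13.5 to E14.5. The distal mandible arrays read 6.03, 6.23 and 6.29 at E10.5 and 3.90, 3.82 and 5.07 at E11.5. Replicate 3, the array of highest median, was the high one at E11.5, and 2 of the 3 were under the floor, as was the group mean of 4.27. From E10.5 to E11.5 Lhx2 was at least 2.47-fold lower in this piece (-1.92, adjusted p = 6.29e-11), the only member called there, where 29.6% of all genes were. The proximal mandible fell 2.85-fold over the same day, from arrays at 7.07, 7.13 and 7.01 to 5.43, 5.69 and 5.54 (-1.51, adjusted p = 1.21e-08), again the only one of the 9, where 39.9% of all genes were called. At E14.5 the distal mandible arrays were back at 7.24, 7.02 and 6.81, a rise of 2.68-fold from E13.5 (1.42, adjusted p = 2.72e-07), with 17% of all genes called and 1 of the 9. In the proximal mandible limma called none of the 9 over that day, where 21.4% of all genes were called, and 2 of the 9 had an unadjusted p under 0.05.

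The position difference of Lhx2 in the mandible therefore changed sign with age. It was -0.89 at E10.5 (adjusted p = 0.000690), -1.29 at E11.5 (adjusted p = 3.24e-06) and -1.28 at E12.5 (adjusted p = 8.09e-07), and at E14.5 the distal level was 3.42-fold above the proximal one (adjusted p = 5.6e-10). The distal mandible mean was under the floor at E11.5, as given above, and at E12.5 (4.08), so the size of the differences at these ages is uncertain. The E10.5 call was lost with replicate 1 left out of all 20 groups (-0.81, adjusted p = 0.0509). In the maxilla the arrays at E11.5 read 6.26, 6.18 and 6.13 distally and 6.97, 6.91 and 7.09 proximally, so Lhx2 was lower distally there too (-0.80, adjusted p = 0.00106). It was higher distally from E12.5 (0.69, adjusted p = 0.00395, or 0.60 and 0.107 without replicate 1), most at E13.5, when the distal arrays read 8.06, 7.87 and 7.97 and the proximal ones 6.21, 6.33 and 6.09 (1.75, 3.37-fold, adjusted p = 1.22e-09). At E14.5 the difference of 0.51 passed narrowly (adjusted p = 0.0418) and was lost on leaving out any single array of the 6. The E13.5 distal maxilla had the highest group mean, 7.96, followed by the E14.5 distal maxilla at 7.69, a gap close to the pooled SD of 0.26. The genes most like Lhx2 over group means were Nuak2 (r = 0.71), Foxl2os (r = 0.69) and Gata2 (r = 0.67).

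Otx2, which sets up the anterior brain and later serves the retina, pigment epithelium and choroid plexus, was at or under the floor in the distal mandible at all 5 ages, between 3.84 and 4.63. In the proximal mandible it was above the floor at every age but E11.5. At E12.5 the proximal arrays read 5.88, 5.98 and 5.83 and the distal ones 4.04, 3.88 and 3.58, at least 2.17-fold lower distally (-2.06, SE 0.46, adjusted p = 0.000296). At E13.5 the proximal arrays split, at 6.52, 4.09 and 7.99, and the distal arrays at 4.32, 4.13 and 3.96 overlapped with replicate 2. The call at that age (-2.06, adjusted p = 0.000407) was lost when only these arrays were fitted (adjusted p = 0.0602). At E14.5 the proximal arrays read 5.72, 5.77 and 4.48, and the call (-1.37, adjusted p = 0.0205) was lost without proximal replicate 1 (-1.17, adjusted p = 0.0951) or 2 (-1.15, adjusted p = 0.109), and without distal replicate 1 (adjusted p = 0.0528) or 2 (adjusted p = 0.0524).

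The uneven proximal mandible arrays were uneven in Ttr as well, the gene of a thyroid hormone carrier secreted by choroid plexus and liver. At E13.5 Ttr read 11.98, 6.43 and 13.31 in replicates 1 to 3, and at E14.5 it read 10.25, 10.96 and 6.89. The array low in Otx2 was the array low in Ttr at both ages, replicate 2 at E13.5 and replicate 3 at E14.5. Ttr belongs to the list of retinal pigment epithelium and pigment cell genes, of which 6 of 11 were lower and none higher distally in the mandible at E12.5, E13.5 and E14.5 alike, beside 32.7%, 25.3% and 26.8% of all genes called in either direction. At E12.5 these included Dct (-2.91), Pmel (-2.12), Tyr (-1.63) and Mitf (-1.19), all of melanin-forming cells. The list's median difference there was -0.49, beside 0.01 over all genes. The part of these cells in the Otx2 values was not tested.

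In the maxilla Otx2 was above the floor in both pieces except proximally at E12.5, when its arrays read 4.31, 4.39 and 4.50. The distal maxilla rose 3.76-fold from E12.5 (5.15, 4.90 and 5.38) to E13.5 (7.15, 7.04 and 6.97; 1.91, adjusted p = 0.000733). That comparison called 3 of the 9 genes and 35.5% of all genes, and from E13.5 to E14.5 limma called none of the 9, with 2 under an unadjusted p of 0.05, and 15.6% of all genes. At E13.5 the proximal arrays of the maxilla read 6.13, 5.84 and 5.79, all below the distal ones, but the position difference of 1.13 was not called. Otx2 stood highest in the proximal maxilla at E10.5 (7.29) and the distal maxilla at E14.5 (7.27), groups of different batches that were not tested against each other. Between the jaws at E11.5 it was lower in the mandible in both pieces, at least 1.76-fold distally (-1.55, adjusted p = 0.00864) and at least 2.63-fold proximally (-1.89, adjusted p = 0.000917). With replicate 1 left out of all 20 groups the differences were -1.53 and -1.77, and neither was called (adjusted p = 0.117 and 0.0578). The spread pooled in that fit includes the split proximal mandible arrays of E13.5, whose part in these p-values was not tested. At E12.5 the proximal pieces had the opposite order (1.50, at least 2.17-fold higher in the mandible, adjusted p = 0.00581, or 1.46 and 0.0917 without replicate 1). The distal difference at E12.5 (-1.31, adjusted p = 0.0311) was lost without distal maxilla replicate 1 (adjusted p = 0.0726) or 3 (adjusted p = 0.105), and without distal mandible replicate 2 (adjusted p = 0.0657) or 3 (adjusted p = 0.109). Inmt (r = 0.85), St8sia4 (r = 0.78) and Clic6 (r = 0.74) were the genes most like Otx2.

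**Figure D3:**
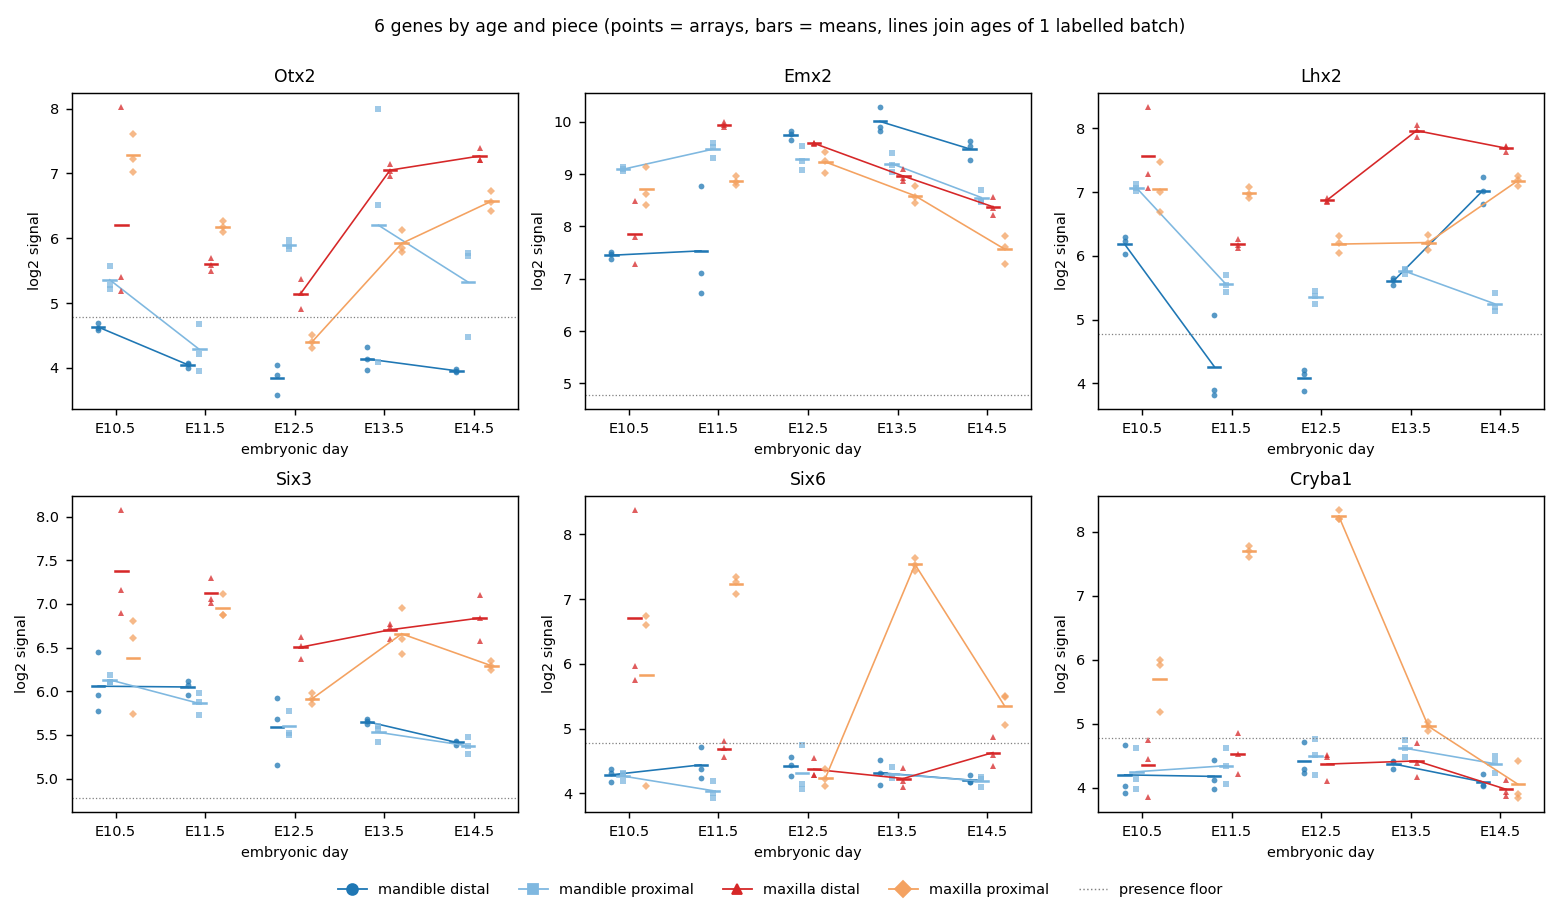
Log2 signal (vertical axis) of Lhx2, Emx2, Otx2, Six3, Six6 and Cryba1 by embryonic day (horizontal axis) in the 4 kinds of piece, with a point per array and lines joining group means of the same labelled batch. Cryba1 and Six6 leave the presence floor only in the maxilla, and Lhx2 in the distal mandible drops to 4.27 at E11.5 and returns to 7.02 at E14.5.

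Six3 and Six6 are homeobox genes of the sine oculis family that act in the eye field. Their 250 bases before the annotated start are shown because both genes were lower in the proximal mandible than in the proximal maxilla at E11.5. The sequences are RefSeq's, build GRCm38.p6, plus strand, with capitals marking the longest run that both hold, TTGATTGGCAG, searched on both strands. That run occurs in 11 of 32851 promoter windows of this length (0.033%), lies 153 to 143 bases before the start of Six3 and 71 to 61 bases before that of Six6, and is a match of letters, not a shown site. The Six3 window lies within the annotated span of the gene, chr17:85613608-85626191, and the Six6 window lies just before its gene, chr12:72939882-72944899.
Six3 (chr17:85620584-85620833, +): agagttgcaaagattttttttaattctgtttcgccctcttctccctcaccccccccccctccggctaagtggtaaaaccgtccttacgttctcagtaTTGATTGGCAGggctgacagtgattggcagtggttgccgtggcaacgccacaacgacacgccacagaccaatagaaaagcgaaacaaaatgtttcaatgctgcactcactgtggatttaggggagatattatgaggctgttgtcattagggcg
Six6 (chr12:72939632-72939881, +): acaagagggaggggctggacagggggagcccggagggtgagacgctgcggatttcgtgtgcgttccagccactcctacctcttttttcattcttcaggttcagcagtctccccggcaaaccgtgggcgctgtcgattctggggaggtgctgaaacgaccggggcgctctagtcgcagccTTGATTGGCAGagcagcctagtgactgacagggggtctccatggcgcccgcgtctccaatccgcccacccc

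Six3 was above the floor in all groups by its brightest probe set, with means of 5.38 to 6.13 in the lower jaw and 5.91 to 7.38 in the upper. At E11.5 the mandible was lower in both pieces, 2.10-fold distally (-1.07, adjusted p = 2.46e-05) and 2.14-fold proximally (-1.09, adjusted p = 1.07e-05). The distal maxilla arrays read 7.29, 7.05 and 7.01 at that age and the proximal ones 6.87, 7.11 and 6.88, and these overlapped. At E10.5 the distal maxilla read 6.90, 7.17 and 8.07 and the proximal maxilla 5.74, 6.61 and 6.80, so every distal array lay above every proximal one (0.99, 1.99-fold, adjusted p = 8.41e-05). This call was lost when only these arrays were fitted (adjusted p = 0.148), and without distal replicate 3 the difference was 0.64 (adjusted p = 0.00938). Differences at E12.5 (0.59, adjusted p = 0.0117) and E14.5 (0.55, adjusted p = 0.0241) were also toward the distal maxilla. The E12.5 call was lost without distal replicate 2 (0.53, adjusted p = 0.0527) and with the mean of the gene's 3 probe sets (0.16, adjusted p = 0.163). The E14.5 call was lost without distal replicate 2 (0.41, adjusted p = 0.154) or 3 (adjusted p = 0.0524), without proximal replicate 2 (adjusted p = 0.0568) or 3 (adjusted p = 0.0666), and with the mean of probe sets (0.12, adjusted p = 0.354). The other 2 probe sets of Six3 spanned 3.63 to 4.02, under the floor, and 4.97 to 5.59. Over group means Six3 was most like Foxl2 (r = 0.83), Foxl2os (r = 0.81) and Dmrta2 (r = 0.79), the first a gene of eyelid and ovary, the last a gene of the cortical primordium.

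Six6 was above the floor in 5 maxilla groups, and in the proximal maxilla it was so at every age but E12.5. At E10.5 the distal arrays read 5.76, 5.97 and 8.38 and the proximal arrays 4.11, 6.75 and 6.60. At E11.5 the proximal arrays read 7.34, 7.08 and 7.26 while the distal group averaged 4.69, under the floor. At E12.5 both pieces were under the floor, with proximal arrays at 4.12, 4.22 and 4.37. At E13.5 the proximal arrays stood at 7.64, 7.53 and 7.44, the highest group mean of the gene, and at E14.5 at 5.50, 5.50 and 5.05. The proximal excess was at least 5.42-fold at E11.5 (-2.54, adjusted p = 1.79e-07) and at least 6.76-fold at E13.5 (-3.31, adjusted p = 9.39e-10). From E12.5 to E13.5 Six6 rose at least 6.76-fold in the proximal maxilla (3.30, adjusted p = 3.96e-10), in a comparison that called 5 of the 9 genes and 35.9% of all genes. From E13.5 to E14.5 it fell 4.55-fold (-2.19, adjusted p = 2.92e-05), with 4 of the 9 genes and 16.8% of all genes called.

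The gene most like Six6 over the 20 group means was Lhx3 (r = 0.78), which specifies the pituitary from its oral ectoderm pouch, ahead of Mctp1 (r = 0.69) and Osgin2 (r = 0.66). Lhx3 averaged 5.33, 6.47 and 5.72 in the proximal maxilla at E12.5, E13.5 and E14.5. Pomc, the hormone precursor of corticotropes and melanotropes, averaged 6.96, 9.01 and 8.60 at these ages, and Cga, the shared subunit of the glycoprotein hormones, 6.54, 7.88 and 6.40, although Cga also averaged 7.45 in the distal maxilla at E12.5, where Six6 was under the floor. In the pituitary list 3 of 6 measured genes were lower distally than proximally at E13.5, namely Pomc (-2.12), Cga (-2.11) and Lhx3 (-1.21), with a list median of -0.74 beside 0.01 over all genes, of which 15.7% were called. At E11.5 it was 2 of 6, Hesx1 (-0.77) and Lhx3 (-0.53), a share near the 34.7% of all genes called. The list's mean level lay at 6.32 to 6.56 in the proximal maxilla arrays of E13.5 and at 5.46 to 5.59 in the distal ones. The part of pituitary cells in the Six6 values was not tested.

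**Figure D4:**
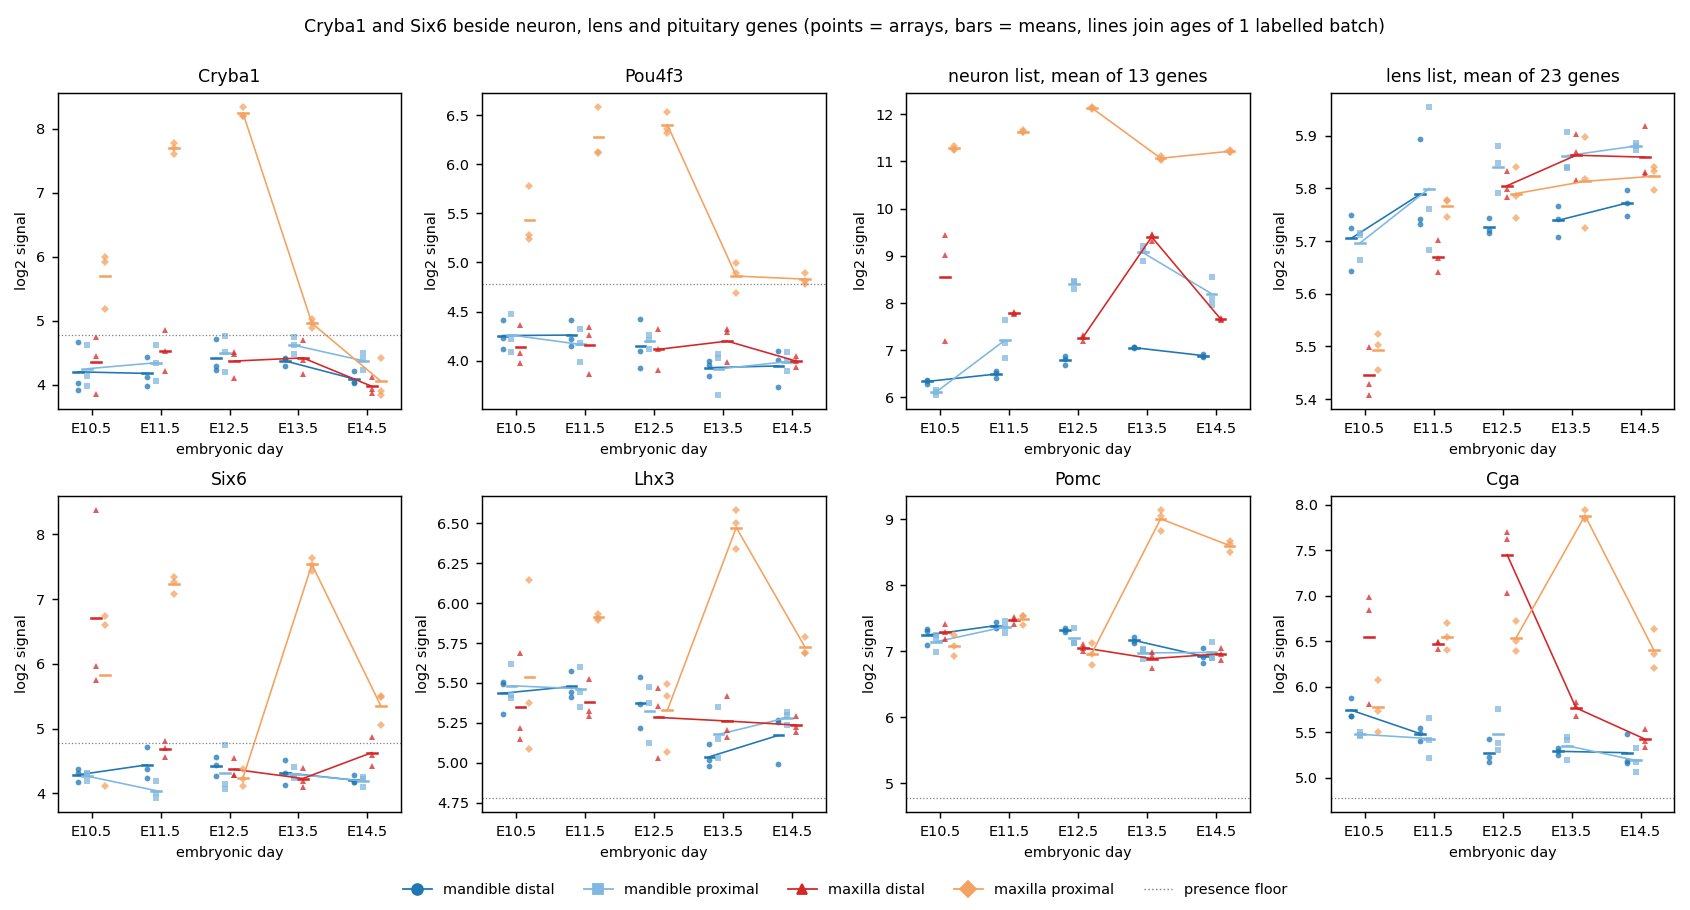
Log2 signal (vertical axis) by embryonic day (horizontal axis) in the 4 kinds of piece for Cryba1, Pou4f3, the mean of the 13 neuron genes, the mean of the 23 measured lens genes, Six6, Lhx3, Pomc and Cga. Cryba1, Pou4f3 and the neuron mean are highest in the proximal maxilla at E12.5 (8.24, 6.40 and 12.14), the lens mean stays between 5.45 and 5.88, and Six6, Lhx3, Pomc and Cga are highest in the proximal maxilla at E13.5.

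Pax6, the paired-box gene that both eye and lens depend on, was flat by the probe set that stood for it, between 6.11 and 6.46 in the 20 groups, and was not called in any comparison. Its 5 probe sets did not behave alike. The one spanning most lay between 4.52 and 5.35 in the mandible and between 5.04 and 7.01 in the maxilla. By that probe set, chosen after seeing the values, Pax6 was lower in the mandible than in the maxilla at E11.5 distally (-1.48, adjusted p = 0.000472) and proximally (-2.21, adjusted p = 2.89e-07) and distally at E12.5 (-1.60, adjusted p = 0.000151). In the maxilla at E12.5 it was higher distally (1.32, adjusted p = 0.000833), with p-values adjusted over all probe sets in these sentences. At E11.5 its arrays read 6.59, 6.74 and 6.48 in the distal maxilla and 5.30, 5.29 and 4.79 in the distal mandible, without overlap. Another of the 5 was lower in the mandible at E11.5 proximally (-0.82, adjusted p = 0.00371) from levels mostly under the floor. Which probe set follows the Pax6 transcript in this tissue was not tested.

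**Figure D5:**
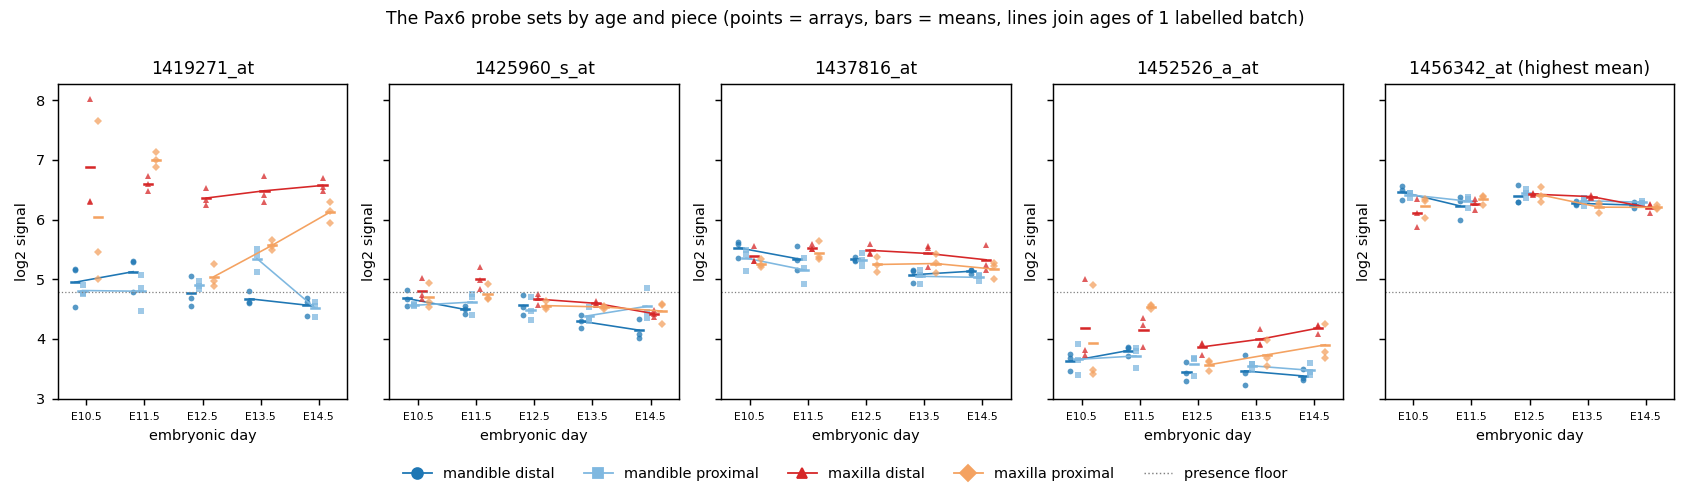
Log2 signal (vertical axis) of the 5 probe sets of Pax6 by group (horizontal axis), a point per array with group means. The probe set with the highest mean stays between 6.11 and 6.46, while another runs from 4.52 in the mandible to 7.01 in the proximal maxilla at E11.5.

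Rax, which is needed for the eye field to form at all, was between 4.82 and 5.66 in group mean, close to the floor throughout. It was not called in any comparison of pieces, jaws or ages. Its highest group mean was the proximal maxilla at E11.5 (5.66), next to the distal maxilla at E10.5 (5.56), which lies in another batch.

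Cryba1 codes for a beta-crystallin and Cryaa for alpha-A crystallin, a small heat shock protein of lens fibres. Their 250 bases before the start are shown because both genes were highest at E11.5 or E12.5 in the same piece and because lens genes are classically driven through Maf factors. The sequences are RefSeq's, build GRCm38.p6, each printed on its gene's strand, and capitals mark TGCTGAC, the core of a Maf recognition element, searched on both strands. It occurs in 1252 of 32851 promoter windows of this length (3.811%), which belong to 1166 of 27025 genes. Among them are 5 of 26 lens genes (Cryaa, Cryba1, Cryba4, Crybb1 and Cryga), a set that includes the 2 shown. Of the 8 members with an entry, these 2 hold it. It lies 57 to 51 bases before the start of Cryba1 and 108 to 102 bases before that of Cryaa. The match describes letters and shows no binding. Cryba1 lies at chr11:77718614-77725293 and Cryaa at chr17:31677931-31681730.
Cryba1 (chr11:77725294-77725543, -): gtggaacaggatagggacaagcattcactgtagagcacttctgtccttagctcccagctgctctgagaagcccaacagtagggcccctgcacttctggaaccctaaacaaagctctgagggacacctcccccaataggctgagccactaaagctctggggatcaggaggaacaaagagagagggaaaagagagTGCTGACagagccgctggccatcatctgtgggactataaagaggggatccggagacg
Cryaa (chr17:31677681-31677930, +): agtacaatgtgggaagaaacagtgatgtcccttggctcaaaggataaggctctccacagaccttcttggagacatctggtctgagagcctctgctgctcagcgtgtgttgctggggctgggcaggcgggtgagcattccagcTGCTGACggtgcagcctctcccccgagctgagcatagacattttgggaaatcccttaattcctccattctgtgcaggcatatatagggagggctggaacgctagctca

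Cryba1 had the largest difference of the 9 genes, and all its called differences between 2 groups involved the proximal maxilla. In that piece its arrays read 5.18, 5.92 and 6.00 at E10.5, then 7.70, 7.61 and 7.77 at E11.5 and 8.19, 8.20 and 8.34 at E12.5. They dropped to 4.88, 5.03 and 4.97 at E13.5 and to 4.41, 3.84 and 3.91 at E14.5. All 15 other groups, and the proximal maxilla at E14.5, averaged at or under the floor. The piece was at least 1.89-fold above the distal maxilla at E10.5 (-1.35 as distal minus proximal, adjusted p = 6.38e-07), at least 7.40-fold at E11.5 (-3.17, adjusted p = 3.18e-18) and at least 11.0-fold at E12.5 (-3.87, adjusted p = 6.31e-22). Against the proximal mandible the excess was at least 7.52-fold at E11.5 (adjusted p = 4.48e-19) and at least 11.0-fold at E12.5 (adjusted p = 2.86e-21). From E12.5 to E13.5 Cryba1 fell 9.73-fold in the proximal maxilla (-3.28, adjusted p = 5.74e-18). The E12.5 mean of 8.24 stood above the E11.5 mean of 7.69 by more than the pooled SD of 0.26, but these ages lie in different batches and were not compared.

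Cryaa was highest in the same piece at E11.5. Its proximal maxilla arrays at E11.5 read 6.43, 6.24 and 6.41, and the other 19 groups averaged 5.42 to 5.92. The proximal maxilla was 1.50-fold above the distal maxilla (-0.58, adjusted p = 0.000205) and 1.51-fold above the proximal mandible (-0.59, adjusted p = 0.000195) at that age. At E12.5, when Cryba1 was highest, Cryaa averaged 5.76 proximally and 5.71 distally in the maxilla, a difference not called.

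Few of the other lens genes differed as Cryba1 did. Of 23 measured in a list of 28, 3 were higher and 3 lower distally in the maxilla at E11.5, and none higher and 2 lower at E12.5, beside 34.7% and 39% of all genes called. The lower ones were led by Maf (-1.89 and -1.0) and Prox1 (-1.40 and -0.60), factors of lens fibre formation that also act in other organs. Against the proximal mandible at E11.5, 2 were higher in the mandible and none lower, beside 32.1% of all genes. The median over the list was 0.06 at E11.5 and 0.05 at E12.5, beside 0.04 and 0.05 over all genes. Of the crystallins in the list, Cryab, Cryba2, Crybb1, Crybb2, Crybb3 and Crygf were above the floor in all 20 groups, Crygs in 18 and Cryba4 in 2, while Cryga, Crygb, Crygd and Crygn were above it in no group. Cryab averaged 6.39 to 11.51, whereas Crybb1 stayed at 5.98 to 6.53 and Crygf at 5.84 to 6.32, near the median of all values of 6.15. A flat signal above the floor does not show that such a gene is expressed. The summed level of the list, taken as the mean over its 23 genes, lay between 5.45 and 5.88 in all 20 groups.

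The genes most like Cryba1 over group means were Ccdc182 (r = 0.95), Galr2, a galanin receptor (r = 0.93), and Pou4f3, a POU factor of hair cells and sensory neurons (r = 0.93). Pou4f3 averaged 5.43, 6.27, 6.40, 4.86 and 4.83 in the proximal maxilla from E10.5 to E14.5 and at most 4.26 in every other group. Neuron genes moved with this piece: 13 of 13 were lower distally than proximally in the maxilla at E10.5, E11.5 and E12.5, with list medians of -2.91, -4.17 and -5.22 beside 0.03, 0.04 and 0.05 over all genes, of which 20.2%, 34.7% and 39% were called. At E11.5 these included Pou4f1 (-5.46), Prph (-5.24), Isl1 (-3.18) and Gap43 (-1.52), and at E12.5 Prph (-6.88), Isl1 (-6.04), Snap25 (-6.03) and Gap43 (-1.63). The mean of the 13 neuron genes in the proximal maxilla was 11.28, 11.63, 12.14, 11.07 and 11.22 at the 5 ages. It therefore stayed high at E13.5 and E14.5, when Cryba1 was at 4.96 and 4.05. The part of neurons in the Cryba1 values was not tested.

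The maxilla at E10.5 needs its arrays read singly, because single arrays departed from their groups. The mean of the neuron list, for example, ran from 7.19 to 9.44 in the distal arrays. The gene with the largest excess in distal replicate 3 over the mean of the other distal arrays was Aldh1a1, a retinaldehyde dehydrogenase of the eye (9.62 against 4.99 and 4.50). In the same array Otx2 was 2.73 above the other 2, ranking 3 of 18193, Six6 was 2.51 above, ranking 7, and the pigment cell genes Pmel and Dct were 2.15 and 2.13 above. Lhx2, Six3, Emx2 and Rax exceeded them by 1.16, 1.04, 0.95 and 0.50. In all, 160 genes were more than 1 above in that array and 11 more than 1 below.

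Proximal replicate 2 also had high Aldh1a1, at 9.07 against 4.19 and 4.78, and high Ttr, at 8.98 against 6.19 and 6.56. Its Six6 was 1.39 above the mean of the other arrays and its Otx2 was not raised (-0.09). Proximal replicate 1 was the low array for Six6 (-2.56), Six3 (-0.96) and Cryba1 (-0.78). In it 5 genes were more than 1 above the mean of the other arrays and 71 more than 1 below, against 31 and 31 in proximal replicate 2. By the most variable probe set of Pax6, distal replicate 3 read 8.03 against 6.31 and 6.30, and proximal replicate 2 read 7.65 against 5.01 and 5.46, so the arrays high in Aldh1a1 were high in it too. At E11.5 all maxilla arrays carried Aldh1a1, at a mean of 7.67 distally and 8.45 proximally, and their spread was small. The mean of the retinal pigment epithelium and pigment cell list was 6.31 in distal replicate 3, against 5.51 and 5.44, and 5.93 in proximal replicate 2, against 5.28 and 5.40. The part of eye tissue in these arrays was not tested.

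With all 6 arrays, Six3 was higher distally (0.99, given above), Cryba1 lower, and Emx2 lower by -0.87 (adjusted p = 0.00705) with groups that overlapped. Six6 (0.88, adjusted p = 0.0906), Otx2 (-1.08, adjusted p = 0.0928) and Lhx2 (0.51, adjusted p = 0.0648) were not called. Arrays of the same number deviated together here, and with the replicate number as a block Six6 passed (0.88, adjusted p = 0.00184), so 4 genes were called. Without both arrays of raised Aldh1a1, Six6 was at 0.51 (adjusted p = 0.320), Otx2 was lower distally by -2.02 (adjusted p = 0.00110), Emx2 by -1.24 (adjusted p = 0.000930) and Cryba1 by -1.44 (adjusted p = 6.72e-06), and Six3 stayed higher (0.76, adjusted p = 0.00539). Emx2 was not called without distal replicate 1 (-0.58, adjusted p = 0.126) or proximal replicate 1 (-0.66, adjusted p = 0.0774). The count rose to 5 without distal replicate 2 or without proximal replicate 2.

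Between the jaws at E11.5, all called members were lower in the mandible. In the distal pieces these were Lhx2, Six3, Emx2 and Otx2, 4 of 9 beside 25.7% of all genes. In the proximal pieces they were Lhx2, Six3, Six6, Cryba1, Cryaa and Otx2, 6 of 9 beside 32.1%, and the member median was -1.09 against 0.06 over all genes. Six6 had the second-largest proximal difference, at least 5.45-fold (-3.18, adjusted p = 9.45e-10). Lhx2 was at least 2.48-fold lower in the distal mandible (-1.93, adjusted p = 7.46e-11) and 2.70-fold lower in the proximal mandible (-1.43, adjusted p = 7.7e-08). At E12.5 the distal count was 3, all lower in the mandible, beside 23.2%, with Lhx2 at least 4.27-fold lower (-2.80, adjusted p = 4.76e-16) and Six3 1.89-fold lower (-0.92, adjusted p = 0.000231). The proximal count was 3, of which Lhx2 and Cryba1 were lower and Otx2 higher in the mandible, beside 43.6%. Over both pieces, 6 gene and piece pairs were called at E12.5, beside 33.4% of all gene and piece pairs. At the remaining 3 ages each jaw has a batch of its own, and a jaw difference cannot be told apart from a batch difference.

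Position differences themselves differed between jaws and ages. At E12.5, 3 of the 9 genes had a position difference that was not the same in the maxilla as in the mandible, beside 33.4% of all genes: Lhx2 (1.97, adjusted p = 1.26e-07) and Otx2 (2.80, adjusted p = 0.000467) leaned distally in the maxilla relative to the mandible, and Cryba1 proximally (-3.80, adjusted p = 1.65e-15). Between E11.5 and E14.5 the signed position difference (distal minus proximal) shifted upward for 2 of the 9 genes in the mandible, Lhx2 and Emx2, beside 17.6% of all genes. In the maxilla it shifted upward for 4, Lhx2, Six6, Cryba1 and Cryaa, beside 19.8%. No distal excess was called in the maxilla at E14.5 for Six6 (-0.72), Cryba1 (-0.08) or Cryaa (0.07). For these genes the proximal excess of E11.5 was no longer called. Without replicate 2 the shift of Six6 was not called (1.78, adjusted p = 0.121), nor was that of Cryaa without replicate 1 or 3. These ages lie in different batches, so age and batch cannot be told apart in those shifts.

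Some forebrain genes outside the 9 were higher in the distal maxilla. Of 14 measured in a list of 16, 5, 4, 7, 6 and 4 were higher in the distal than in the proximal maxilla at the 5 ages in turn and none was lower. The shares of all genes called in either direction were 20.2%, 34.7%, 39%, 15.7% and 33.7%, so the counts at E11.5 and E14.5 were no higher than the background. List medians were 0.29, 0.15, 0.25, 0.17 and 0.10, beside 0.03, 0.04, 0.05, 0.01 and 0.05 over all genes. At E13.5 the called genes included Sp8 (2.46), Fezf1 (1.41), Dmrt3 (0.81) and Dmrta2 (0.79), of which Sp8 and Dmrta2 are known in facial ectoderm and mesenchyme as well as in the cortex. Between the distal jaws at E11.5, 4 of 14 were lower in the mandible, led by Sp8 (-2.17) and Dmrta2 (-1.63), and none higher, a share near the 25.7% of all genes called. The list's mean stayed between 4.77 and 5.50 in all groups. In single arrays of the maxilla at E10.5 it ran from 5.17 to 5.57 distally and from 4.89 to 5.04 proximally. Distal maxilla replicate 3 at E10.5 had Fezf2 1.90 and Dmrta2 0.71 above the mean of the other distal arrays. The part of this array in the E10.5 count was not tested.

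At E11.5 the optic vesicle and neural retina list did not follow the same line, and its counts at the other ages are not given here. Of 10 measured in 12, 1 was higher and 3 lower in the distal maxilla at E11.5, beside 34.7% of all genes called, the lower ones led by Neurod4 (-5.10) and Hmx1 (-3.06), both also genes of cranial ganglia. In the mandible the forebrain list had 2 of 14 genes higher and none lower distally at E12.5, E13.5 and E14.5, Otx1 (1.90, 1.65 and 2.09) and Dmrta2 (1.25, 0.97 and 1.02), fewer than the background of 32.7%, 25.3% and 26.8%.

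Pairs of the 9 genes varied together only in part. Over the 20 group means Pearson's r was 0.66 for Lhx2 with Otx2, 0.66 for Six3 with Rax, 0.68 for Cryaa with Rax and 0.62 for Six3 with Six6. Within groups, over deviations of the 24 arrays of E10.5 and E11.5, it was 0.83 for Six3 with Six6, 0.73 for Six3 with Rax, 0.64 for Lhx2 with Otx2 and 0.64 for Six6 with Cryba1. These are descriptions over points that share arrays, batches and pieces, and the 2 maxilla arrays of raised Aldh1a1 are among them. Six6 was under the floor in all 12 mandible arrays, so its values within groups rest mainly on the maxilla at E10.5, where its arrays ran from 4.11 to 8.38.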

How the data were processed

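Total RNA of 60 samples was hybridised to Affymetrix mouse arrays. The deposited log2 values were made with RMA by the authors, per the submitters' processing notes, which name no version. No normalization was added. Of 45101 probe sets, 64 controls were left out, 34945 had a single gene symbol in the platform annotation of 2016, 932 several and 9160 none. This left 18193 genes, and for 9010 genes with several probe sets the one of highest mean stood for the gene. The share of identical values between any 2 arrays was at most 0.408%.

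All arrays entered a fit in limma 3.58.1 under R 4.3.3 with a mean per group and 40 residual degrees of freedom. Contrasts were tested on both sides with eBayes (trend), adjusted by Benjamini-Hochberg over all genes, and called at an adjusted p under 0.05. There were 17 planned comparisons and 9 added after seeing the data, the latter being the differences by age after E11.5 and 3 of the 4 differences of differences. The number of arrays limits the precision. In data simulated with known changes, the fit recovered 55% (difference of differences at E11.5) to 82% (distal jaws at E12.5) of genes changed by log2 0.5.

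The members and the 12 marker lists (148 genes, 130 measured) were chosen with earlier results of these data known. Up to 4 called genes of smallest p were named per list and comparison, and up to 3 genes most correlated with a member whose means span at least 1, among genes reaching 6. Aldh1a1, Ttr by array, and single crystallins were named after their values were seen. Promoter windows came from RefSeq (GRCm38.p6), and Rax had no entry there. Same-numbered distal and proximal arrays correlated by over 0.1 in every pair in the maxilla at E10.5 alone, with correlations of 0.17 to 0.34. Alternatives changed the normalization, centring, dim-gene filter, probe set rule, arrays fitted, eBayes settings, replicate block, arrays left out and fold limit.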

Additional observations from a re-analysis of the deposited data

Results flagged for a closer look

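In each of the following a difference between pieces was tested against the same difference in the other jaw or at another age, with limma and p-values adjusted over all genes, and passed. Values are differences of log2 differences (distal minus proximal). Where a group lies at or under the presence floor the size is uncertain.

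At E11.5 the position difference in the maxilla departed from that in the mandible by -2.94 for Six6 (adjusted p = 1.87e-05), 3.02 for Emx2 (adjusted p = 1.15e-09), -3.0 for Cryba1 (adjusted p = 7.4e-12) and -0.66 for Cryaa (adjusted p = 0.00433). The Cryaa value was not called without replicate 3 (-0.60, adjusted p = 0.0589). All 12 arrays share a labelled batch. At E12.5 it departed by 1.97 for Lhx2 (adjusted p = 1.26e-07), -3.80 for Cryba1 (adjusted p = 1.65e-15) and 2.80 for Otx2 (adjusted p = 0.000467), 3 of the 9 genes beside 33.4% of all genes.

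From E11.5 to E14.5 the position difference in the mandible shifted by 3.07 for Lhx2 (adjusted p = 6.57e-12) and by 2.87 for Emx2 (adjusted p = 1.1e-08), beside 17.6% of all genes called. In the maxilla it shifted by 1.31 for Lhx2 (adjusted p = 0.000396), 1.82 for Six6 (adjusted p = 0.00900, or 0.121 without replicate 2), 3.09 for Cryba1 (adjusted p = 7.1e-12) and 0.65 for Cryaa (adjusted p = 0.00608, or 0.10 without replicate 1 and 0.0999 without replicate 3), beside 19.8% of all genes. The ages compared come from different labelled batches, so age and batch cannot be told apart in these shifts.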

How the results depend on the processing

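Of 71 called differences of single genes, 40 kept direction and call in every alternative run. Of 1501 alternative values, 1405 kept both, 96 kept the direction without passing and 0 changed sign. With a 2-fold limit the count of called genes was 1 in the mandible at E10.5, 1 in the maxilla at E10.5, 3 in the maxilla at E11.5 and 3 gene and age pairs for the upper jaw over the ages after E11.5, in place of 2, 3, 5 and 8. With only the arrays compared, the maxilla gave 1 at E10.5 and 15 pairs at the later ages. From E10.5 to E11.5 the distal mandible gave 2 in place of 1 under repeated quantile normalization, centring, the dim-gene filter, only the arrays compared and eBayes without trend. The proximal mandible gave 2 in place of 1 under the first 3 of these and 3 with only the arrays compared. The cause was not tested.

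Leaving out each replicate number or array gave 1 to 2 in the mandible at E10.5, 2 to 2 at E11.5, 2 to 5 in the maxilla at E10.5, 5 to 5 at E11.5, 3 to 4 between distal and 5 to 7 between proximal jaws at E11.5, and 4 to 5 for the difference of differences at E11.5. It gave 1 to 2 for the distal and 1 to 2 for the proximal mandible from E10.5 to E11.5, 5 to 7 pairs in the mandible and 4 to 9 in the maxilla over those later ages (4 without replicate 1, 5 without replicate 2), and 4 to 6 between jaws at E12.5. With the replicate number as a block the maxilla at E10.5 gave 4 in place of 3, by the gain of Six6 (adjusted p = 0.00184 in limma). Alternatives chosen after seeing the data, the probe set of widest span and the fit without both arrays of raised Aldh1a1, gave 3 and 4 there. Signals near the floor limit Six6, Cryba1, Otx2 and Rax in the mandible, and Lhx2 in the distal mandible at E11.5 and E12.5.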

Other observations

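Oc90, the otoconin gene of the inner ear, averaged 11.10, 10.32 and 11.00 in the proximal mandible at E12.5, E13.5 and E14.5 and 10.31 in the proximal maxilla at E13.5, against at most 6.46 in the proximal mandible at E10.5 and E11.5, which lie in another batch. In the mandible its distal minus proximal difference was -5.31, -4.52 and -5.17 at these ages. At E13.5 the arrays read 10.67, 9.06 and 11.25, lowest in replicate 2, which was also the low array for Otx2 and Ttr. These genes were looked at after their values were seen.

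Foxl2, the forkhead gene of the eyelids closest to Six3 in its course, averaged 9.45 to 11.46 in the maxilla and 7.11 to 8.59 in the mandible. In the mandible it was lower distally at E10.5 (-0.62) and in the maxilla higher distally at E10.5 (0.76) and E12.5 (1.65). Its position differences in the other jaw and age combinations are not given here.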
